A study of Mus musculus with 6 samples.

Results

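The genes described here are 10 antiviral interferon genes, Ifit1, Ifit2, Ifit3, Ifit3b, Isg15, Rsad2, Samd9l, Oasl2, Ifih1 and Ddx58, in oligodendrocyte precursor cells (OPCs) cultured from mouse brain. They were chosen by name, and every element-gene pair whose target gene had 1 of these names was taken. They are 10 of the 32049 genes listed in either condition. Of the 10, 9 were listed in control cells and 9 after IFN-γ: Oasl2 was listed only after IFN-γ and Ddx58 only in control cells.

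The cells were primary OPCs, labelled in both conditions as strain C57BL/6j and genotype Sox10-Cre/RCE, in which a Cre driven from Sox10 switches on a fluorescent reporter in the oligodendrocyte lineage. The study's methods place the reporter parents on a mixed background of C57BL/6 and CD1. By those methods the cells came from pooled brains of pups aged 4 to 6 days and were purified by sorting for the Sox10 reporter or with magnetic beads against CD140a, the Pdgfra protein, and which of these was used for each library is not given in the sources used here. Ctr-OPCs were kept in proliferation medium, and IFN-γ-OPCs received the same medium with 100 ng/mL IFNg from 24 h after passaging, for 48 h per the methods. H3K27ac HiChIP, which captures chromatin contacts at regions that carry the active mark H3K27ac, was made in 6 libraries, 3 per condition, but the deposited predictions are 1 pooled table per condition. There is therefore no replicate error for any value below, no test was possible, and every difference is a difference between 2 tables. The tables hold no read counts, so the depth behind the values is unknown.

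Each table lists pairs of a regulatory element and a target gene from the activity-by-contact (ABC) model. Activity combines the accessibility and H3K27ac of an element, contact is the HiChIP frequency between the element and the start site of the gene in 5 kb bins, and the ABC score of a pair is its activity times contact divided by the sum of this product over all candidate elements of the gene. Whether the contact in a table came from the HiChIP libraries of its own condition alone is not given in the sources used here. The sum over elements, recovered as the product divided by the score, is called the gene total below. A score is thus a share within a gene, and it can fall while activity and contact are both higher. A pair with a score above 0.05 is called a connection, the study's threshold. The tables start at a score of 0.02, leave out genes whose promoter activity quantile is below 0.4, and hold 0 pairs of a promoter with its own gene, so a pair or gene absent from a table may lie below these limits.

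Interferon-stimulated genes are the effector arm of innate antiviral defence. The helicases encoded by Ifih1 and Ddx58 sense viral double-stranded RNA in the cytosol and start interferon production, and secreted interferons then act through JAK kinases and STAT and IRF factors on 2 kinds of sites, the interferon-stimulated response element (ISRE) and the gamma-activated site (GAS). Among the Ifit proteins, which bind or help to bind viral RNA, Ifit1 recognises an incompletely methylated cap, Rsad2 encodes viperin, which makes a chain-terminating nucleotide, Samd9l restricts poxviruses, Oasl2 belongs to the oligoadenylate synthetase family, and Isg15 is a ubiquitin-like modifier.

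Promoter sequence is shown because the same short repeat recurs in these genes, and the data below give the activity of their promoters. The ISRE core was searched as GAAANNGAAA on both strands, where overlapping matches were counted separately, in windows from 250 bases before to 50 bases after the RefSeq start site (GRCm38.p6). Such a core was found in 7 of the 10 member windows (70.0%), against 1131 of all 32851 promoter windows (3.44%). In Ifit1, Ifit3, Ifit3b and Isg15 the window held more than 1 core, which was the case in 74 windows of the whole set (0.225%). The 200 bases before the start site are given here in the direction of the gene for the 5 members with a core there, with the core in capitals on whichever strand it was read.
Ifit1 promoter, chr19:34640689-34640888, plus strand: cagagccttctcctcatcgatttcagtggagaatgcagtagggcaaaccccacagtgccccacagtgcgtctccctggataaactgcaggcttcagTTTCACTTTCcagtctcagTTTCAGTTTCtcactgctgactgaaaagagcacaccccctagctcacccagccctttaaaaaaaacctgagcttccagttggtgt
Ifit3 promoter, chr19:34583329-34583528, plus strand: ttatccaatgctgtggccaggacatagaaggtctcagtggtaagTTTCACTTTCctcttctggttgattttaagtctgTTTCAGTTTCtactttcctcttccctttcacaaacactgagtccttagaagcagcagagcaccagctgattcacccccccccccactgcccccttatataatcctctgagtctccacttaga
Ifit3b promoter, chr19:34607757-34607956, plus strand: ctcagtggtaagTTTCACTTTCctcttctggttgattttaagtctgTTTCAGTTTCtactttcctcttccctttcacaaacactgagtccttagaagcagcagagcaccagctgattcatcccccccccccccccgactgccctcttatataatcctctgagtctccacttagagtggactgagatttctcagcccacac
Isg15 promoter, chr4:156200819-156201018, minus strand: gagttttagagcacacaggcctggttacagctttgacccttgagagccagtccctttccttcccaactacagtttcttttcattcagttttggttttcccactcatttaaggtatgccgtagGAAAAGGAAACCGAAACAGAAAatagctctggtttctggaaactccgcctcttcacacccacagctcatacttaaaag
Rsad2 promoter, chr12:26456453-26456652, minus strand: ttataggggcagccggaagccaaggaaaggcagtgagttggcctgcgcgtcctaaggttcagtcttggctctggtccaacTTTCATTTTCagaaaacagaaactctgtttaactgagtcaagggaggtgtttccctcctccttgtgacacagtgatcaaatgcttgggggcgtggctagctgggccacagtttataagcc

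In Ifit1 the cores began at positions -104 and -85 from the start site. Ifit3 and Ifit3b are near copies: their windows were identical at 259 of 274 aligned positions (94.5%), and the same pair of cores, 34 bases apart in each, began at -156 and -122 in Ifit3 and at -188 and -154 in Ifit3b. In Isg15 the 3 cores overlapped, beginning at -78, -72 and -66. Rsad2 had 1 core at -120. Ddx58 and Ifih1 had 1 core each after the start site, at positions 3 and 33. Ifit2, Samd9l and Oasl2 had none in these windows, which says only that these letters were not found there. The GAS letters TTCNNNGAA were found in 1 member window of 10, that of Ifit2, and in 8.30% of all windows.

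The gene totals of most members were higher in IFN-γ-OPCs. Among the sensors, Ifih1, which encodes a receptor for long double-stranded RNA, had a gene total of 0.307 in Ctr-OPCs and 0.444 with IFN-γ (1.44-fold). Ddx58, the receptor also known as RIG-I, had a total of 0.626 in Ctr-OPCs and no listed pair in IFN-γ-OPCs. Of the sensors, then, the total could be compared for Ifih1 alone.

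The Ifit genes all lie within 1 cluster on chromosome 19 and all had higher totals with IFN-γ. Ifit1 had a total of 0.436 in Ctr-OPCs and 0.672 after IFN-γ (log2 ratio 0.62). Ifit2 had 0.547 and 0.801 (log2 ratio 0.55). The near copies Ifit3 and Ifit3b had the largest ratios of the 4, but multimapped reads had been removed from the ATAC-seq data, and how much signal these similar sequences lost in either condition cannot be read from the tables. Ifit3 had 0.407 in Ctr-OPCs and 0.857 with IFN-γ (log2 ratio 1.07), and Ifit3b had 0.432 and 0.952 (log2 ratio 1.14). By the size of this ratio Ifit3b stood in place 5 and Ifit3 in place 10 among the 20321 genes listed in both tables.

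The other effectors ranged more widely. Samd9l had the lowest total of all members in both tables, 0.0997 in Ctr-OPCs and 0.212 after IFN-γ, a ratio of 2.13-fold that was in place 8 of 20321. Rsad2 had 0.620 and 0.828 (1.34-fold). Oasl2, listed only after IFN-γ, had a total of 1.466 there. Isg15 was the only member listed in both tables whose total was lower with IFN-γ, at 1.487 in Ctr-OPCs and 1.270 with IFN-γ (log2 ratio -0.23).

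As a list, 7 of the 8 members listed in both tables had a higher total with IFN-γ, where 35.7% of the 20321 genes did, and the median log2 ratio was 0.59 against -0.066 over those genes. The total was more than 1.5-fold higher for 4 members, Ifit1, Ifit3, Ifit3b and Samd9l, against 0.615% of all genes, and more than 1.5-fold lower for 0 members, against 0.118%. Ifit1 at 1.54-fold was just inside this limit and Ifit2 at 1.46-fold and Ifih1 at 1.44-fold just outside. The Ifit genes share elements and contacts, so they are not separate observations: with the mean of the 4 Ifit genes counted once, the median over 5 loci was 0.53 and 2 of the 5 passed 1.5-fold.

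**Figure D1:**
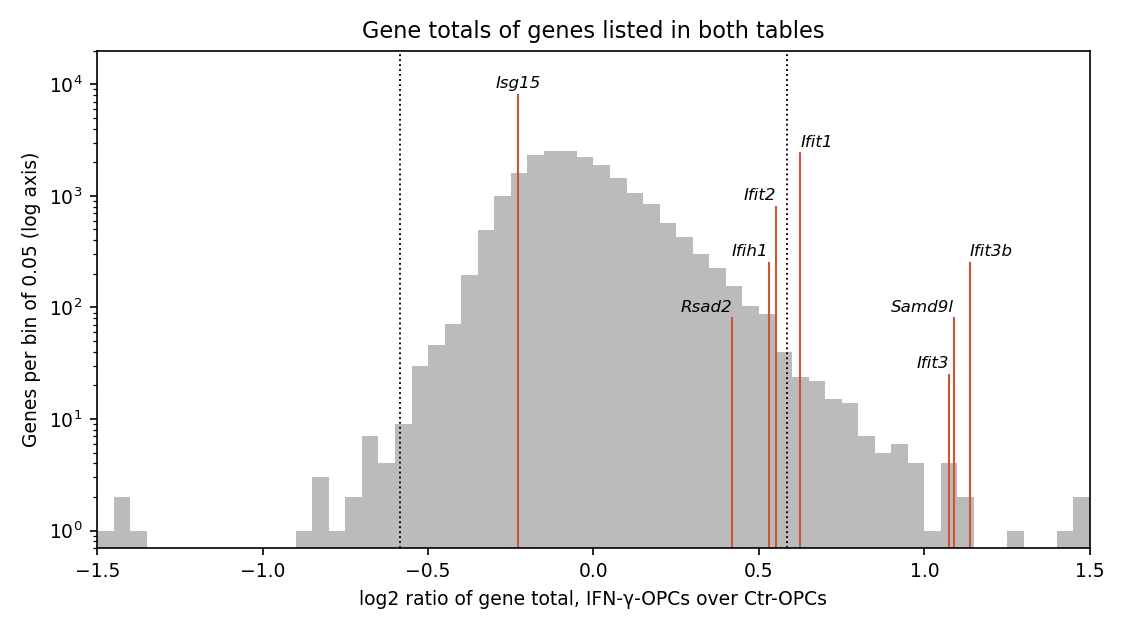
Histogram of the log2 ratio of gene total, IFN-γ-OPCs over Ctr-OPCs, for the 20321 genes listed in both tables (grey, bins of 0.05, log vertical axis, with 3 genes beyond the range drawn in the end bins), with 8 members marked by lines and 1.5-fold by dotted lines. Ifit3, Samd9l and Ifit3b lie between 1.07 and 1.14 at the right edge, and Isg15 at -0.23 lies left of 0.

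The activity of the promoters, given by the authors as a quantile over all genes from 0 to 1, was also higher for most members, 7 of the 8 listed in both tables, where it was higher for 49.5% of all genes. The gene total holds the gene's own promoter, so quantile and total are not separate measures. The Ifit genes lie in the same cluster, with Ifit3 and Ifit3b near copies, so this count is not over separate loci. Ifit3 was at 0.417 in Ctr-OPCs, just above the lower limit of the tables, and at 0.878 in IFN-γ-OPCs. Isg15 moved from 0.450 to 0.806, although its gene total was lower. Samd9l was at 0.474 and 0.728. Among the 9 members listed in Ctr-OPCs, Ifit3, Isg15 and Samd9l thus had the lowest quantiles there, and Ifit3b was next at 0.609 in Ctr-OPCs and 0.916 after IFN-γ. The promoter of Ifit1 was at 0.724 and 0.909, which made 5 members that were higher by over 0.1, where 8.79% of all genes were.

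The quantile cannot pass 1, which leaves less room above promoters that already ranked high in control cells. Rsad2 was at 0.809 in Ctr-OPCs and 0.894 with IFN-γ, and Ifih1 at 0.806 and 0.894. Ifit2 was the only member whose quantile was lower with IFN-γ, 0.875 against 0.832, although its total was higher. Ddx58 was at 0.767 in Ctr-OPCs and Oasl2 at 0.837 in IFN-γ-OPCs. In Ctr-OPCs the members listed spanned 0.417 to 0.875, and in IFN-γ-OPCs 0.728 to 0.916, a narrower range.

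**Figure D2:**
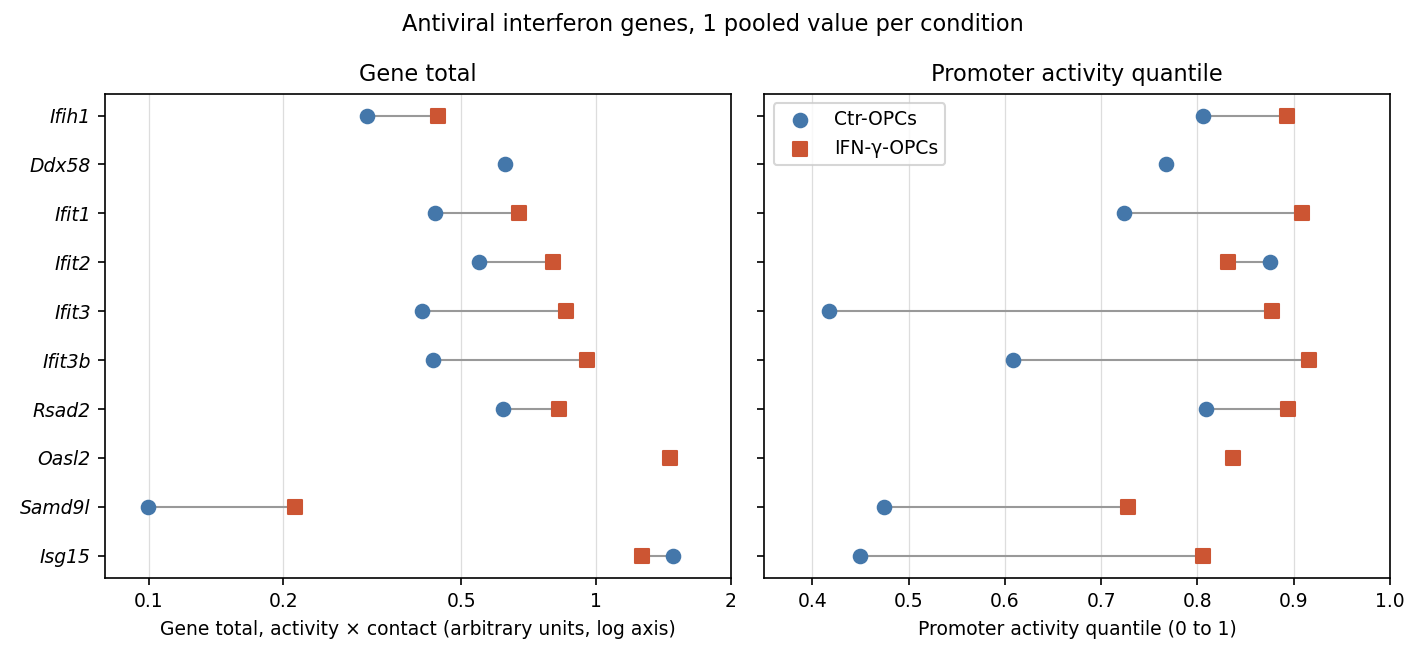
Gene total (left, log axis, arbitrary units) and promoter activity quantile (right) of each member in Ctr-OPCs (blue circles) and IFN-γ-OPCs (red squares), 1 pooled value per condition with no error, joined by a line where both exist. Totals are higher after IFN-γ for 7 of 8 members and quantiles for 7 of 8, with Isg15 the exception on the left and Ifit2 on the right.

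Most of the difference in total lay outside the elements that the tables list for a gene. For Ifit3 the listed elements summed to 0.113 in Ctr-OPCs and 0.172 after IFN-γ, while the remainder was 0.294 and 0.685. This remainder holds the gene's own promoter and elements under the 0.02 limit. Every listed element of a member was classed as genic or intergenic and not as a promoter. The remainder may therefore also hold promoters of neighbouring genes, and its parts cannot be told apart here. Listed elements made up 13.2% of the difference in total for Ifit3, 4.47% for Ifit3b and 2.95% for Ifit1. The share was larger for Ifih1 (28.8%), Ifit2 (42.2%) and Samd9l (43.6%). For Rsad2 the listed sum was lower with IFN-γ, 0.0569 against 0.0471, and the remainder was higher, 0.563 against 0.781. For Isg15 the listed sum was 0.0572 in Ctr-OPCs and 0.0627 with IFN-γ, and the lower total came from the remainder, 1.430 against 1.207.

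**Figure D3:**
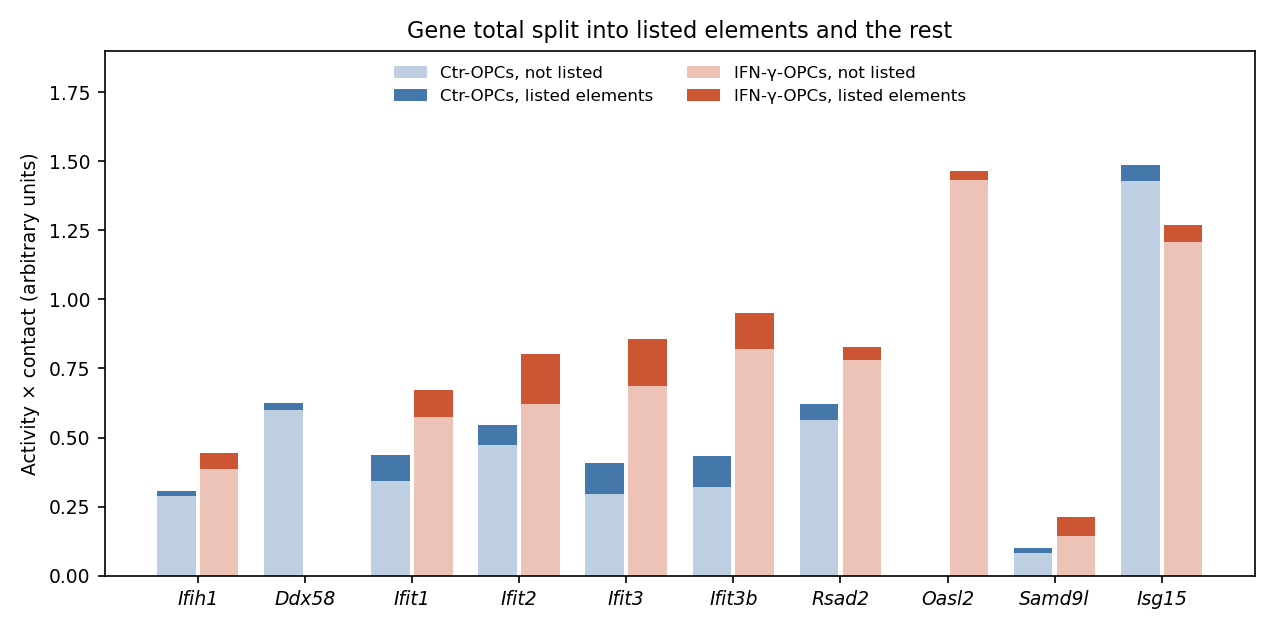
Gene total of each member split into listed elements (dark) and the rest (pale) in Ctr-OPCs (blue) and IFN-γ-OPCs (red), in arbitrary units of activity times contact. In each of the 8 members listed in both tables the pale part differs more between conditions than the dark part, and in Ifit2 and Samd9l the dark part makes 42.2% and 43.6% of the difference.

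The members had 35 listed pairs with 28 distinct elements in Ctr-OPCs and 31 pairs with 24 elements in IFN-γ-OPCs. Connections numbered 6 in Ctr-OPCs and 10 after IFN-γ. Samd9l went from 0 to 4 and Ifit3 from 1 to 2, so 2 of 10 members had more connections (14.9% of all 32049 genes did), and Ifit3b went from 2 to 1, so 1 of 10 had fewer (13.0% of all genes). Ifit1, Ifit2 and Ifih1 had 1 connection in each condition, and Isg15, Rsad2, Oasl2 and Ddx58 had 0. Shares of this size are near those of all genes. The order of the conditions turned with the score: with the power-law score, which replaces measured contact by a function of distance, the members had 14 connections in Ctr-OPCs and 13 with IFN-γ. The pairs nearest to the threshold were Ifit3 at 0.0516 and Ifit1 at 0.0518, both in IFN-γ-OPCs, inside it, and Samd9l at 0.0495 in Ctr-OPCs and Ifit2 at 0.0480 in IFN-γ-OPCs outside.

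Which elements were paired with a member differed between the tables more than how many. Of the 35 pairs in Ctr-OPCs, 10 had the same gene paired with an overlapping element in IFN-γ-OPCs, 16 had an overlapping element listed for other genes only, and 9 had none, where the shares over all pairs of that table were 45.8%, 26.7% and 27.6%. Of the 31 pairs in IFN-γ-OPCs the counts were 10, 5 and 16, against 42.8%, 25.6% and 31.6% of all pairs. Over the Ifit cluster the Ctr-OPC table held 12 elements with a mean activity of 0.703, and 14 elements with a mean of 0.887 were in the IFN-γ-OPC table, of which 3 and 5 had no overlapping element in the other table. Over all elements 40% and 44.5% had none, so overlap was no rarer in the cluster than elsewhere.

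The cluster's most active element in IFN-γ-OPCs was absent from the Ctr-OPC table. It lay at chr19:34569951-34570450 (mm10), over coding exon and untranslated sequence of Ifit2, with an activity of 1.84. It was paired with Ifit3 at a score of 0.0649, with Ifit2 at 0.0480 and with Ifit1 at 0.0234, at distances of 13.3, 19.5 and 70.7 kb from their start sites. An intergenic element between Ifit2 and Ifit3, at chr19:34576978-34577925 with an activity of 0.933, was likewise listed only in IFN-γ-OPCs, with the same 3 genes and a score of 0.0516 for Ifit3. Both connections of Ifit3 in IFN-γ-OPCs were with these elements. Its single connection in Ctr-OPCs was with another element, in an intron of Ifit1bl1 at chr19:34596250-34597983, at 0.0621.

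That Ifit1bl1 intron element was the only matched member element whose activity was more than 1.5-fold lower with IFN-γ (1 of 23, against 13.3% of all matched elements), 1.28 in Ctr-OPCs and 0.586 after IFN-γ. It was drawn 1734 bases wide in Ctr-OPCs and 500 bases wide in IFN-γ-OPCs, and whether the width bears on the activity was not tested. It was paired with Ifit3 and Ifit3b in Ctr-OPCs and with neither in IFN-γ-OPCs.

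Some elements close to the start sites of Ifit genes were listed for the same gene in both tables. In the Ifit2 intron, 2.57 kb from its start site in Ctr-OPCs, an element had an activity of 0.774 there and 1.29 in IFN-γ-OPCs, and its adjusted contact with Ifit2, the contact after the model's pseudocount, was 0.0480 and 0.0511. Its score for Ifit2 was 0.0679 and 0.0820. Just upstream of Ifit3b an element had an activity of 0.629 in Ctr-OPCs and 1.05 with IFN-γ at an adjusted contact of 0.0561 and 0.0563. Yet its score for Ifit3b was 0.0815 and then 0.0622, since the total of Ifit3b was higher. This element was 877 bases wide in Ctr-OPCs and 500 bases wide in IFN-γ-OPCs, and these stretches overlapped only in part. Whether this bears on its activity was not tested. Both elements were more than 1.5-fold more active with IFN-γ. Each lay in the same 5 kb bin as the start site, so its contact does not resolve the element from the start site. Another listed element of the same gene in that bin had the same contact.

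For Ifit1 the nearest listed element lay in an intron of the neighbouring paralog Ifit1bl2. The activity was 0.774 in Ctr-OPCs and 0.884 after IFN-γ, the adjusted contact 0.0536 and 0.0394, and the score 0.0951 and 0.0518. Downstream of Ifit1, 21.4 kb from its start site, an element had an activity of 1.11 in Ctr-OPCs and 1.16 with IFN-γ with an adjusted contact of 0.00946 and 0.0172. All 11 listed pairs of Ifit1 were also pairs of Ifit1bl2 with the same totals, so the values of these 2 genes are the same data, as were the 3 pairs of Isg15 and AW011738. Ifit3b shared 7 of its 9 pairs with Ifit1bl1.

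**Figure D4:**
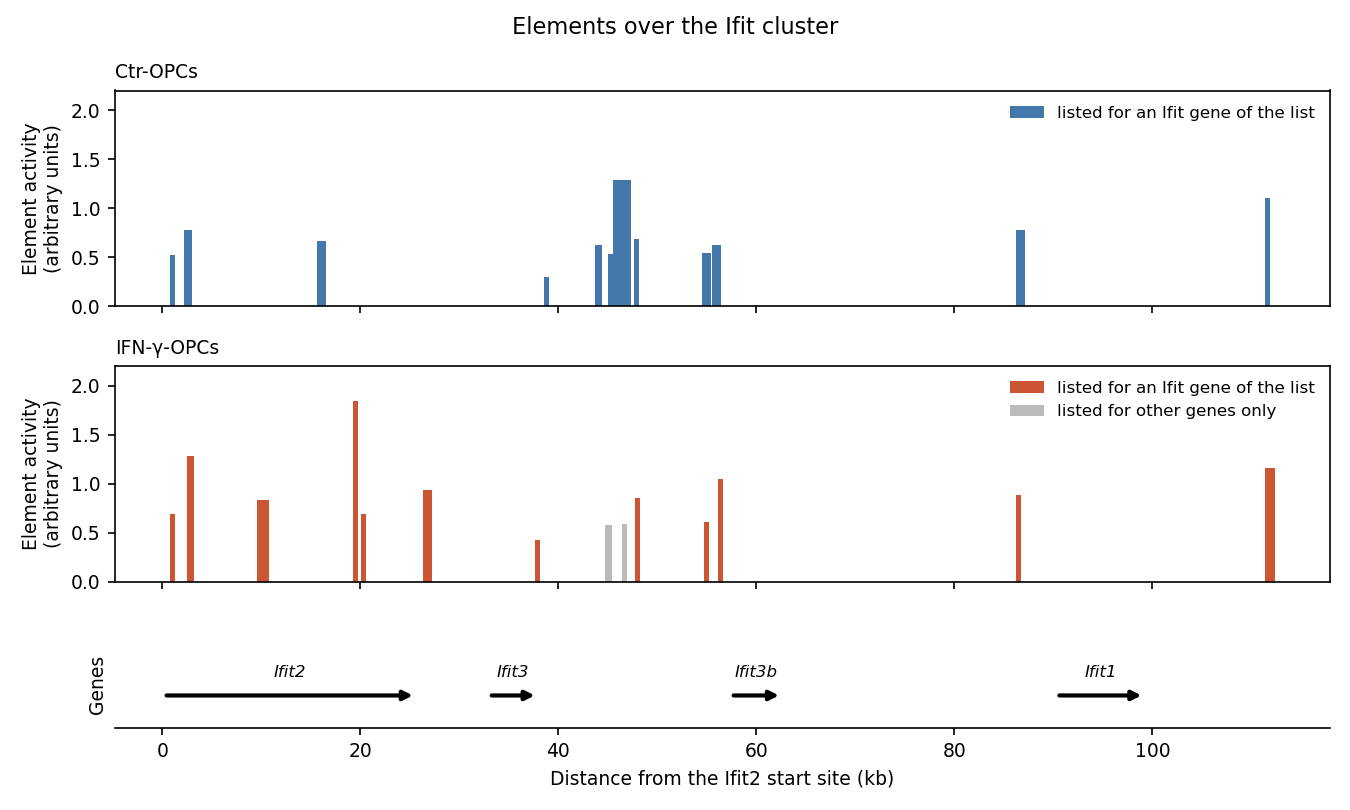
Activity (arbitrary units) of every listed element over the Ifit cluster in Ctr-OPCs (upper) and IFN-γ-OPCs (middle), by distance from the Ifit2 start site in kb, coloured where listed for Ifit1, Ifit2, Ifit3 or Ifit3b and grey where listed for other genes only, with the 4 genes as arrows (lower). The tallest bar after IFN-γ, 1.84 over the Ifit2 exon, has no counterpart in Ctr-OPCs.

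Sequence around each ISRE core inside a member element is shown because the promoters of the same genes held such cores. Over whole elements, 3 of 28 in Ctr-OPCs and 3 of 24 in IFN-γ-OPCs held a core, and none of these cores lay inside a listed element of the other table. Over all elements a core was in 7.70% and 10.9%, and of those elements 47.0% in Ctr-OPCs and 65.4% with IFN-γ had no core inside an element of the other table, so the absence is common. The core with up to 10 bases of the mm10 genome on either side is given here, with the core in capitals.
Rnf144a intron, Ctr-OPCs (Rsad2), chr12:26312485-26312514, plus strand: gaaatcaccaGAAAGAGAAAaaaagagaga
Ifit2 intron, Ctr-OPCs (Ifit3), chr19:34567112-34567141, plus strand: gagagaggggGAAAGGGAAAgagagaagga
Dlx6os1 intron, Ctr-OPCs (Samd9l), chr6:6860711-6860740, plus strand: ccagcctatcTTTCATTTTCccagaagatg
upstream of Rsad2, IFN-γ-OPCs (Rsad2), chr12:26460222-26460282, plus strand: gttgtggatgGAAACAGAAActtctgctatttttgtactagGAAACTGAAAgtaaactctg
Ifit2 intron, IFN-γ-OPCs (Ifit1 and Ifit2), chr19:34553665-34553700, plus strand: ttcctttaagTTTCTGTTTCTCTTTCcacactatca
beside the Ifit2 exon, IFN-γ-OPCs (Ifit1, Ifit2 and Ifit3), chr19:34570183-34570212, plus strand: tactttctggTTTCAATTTCtcttctttgg

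The Ifit2 intron element of IFN-γ-OPCs held 2 overlapping cores that began 39 bases past the end of the matching element in Ctr-OPCs, so the bounds of the element took in the cores in the table of IFN-γ-OPCs and left them out in that of Ctr-OPCs. The element upstream of Rsad2 held 2 cores about 3.8 kb from the start site and was listed only in IFN-γ-OPCs. The core of the Ifit2 exon element, also listed only in IFN-γ-OPCs, lay in the intron beside the exon. Within the central 500 bases, a core was found in 2 of 28 member elements in Ctr-OPCs (7.14%), against 5.41% of all elements, and in 3 of 24 in IFN-γ-OPCs (12.5%), against 8.60%, which is near the share of all elements in each table. The GAS letters were in 3 of 28 member elements (10.7%) and 2 of 24 (8.33%), against 13.9% and 15.2% of all elements.

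Samd9l, like Ifit3 and Isg15, had no pair with an overlapping element in both tables. In Ctr-OPCs it had 6 pairs, with elements 113 to 3461 kb away, and the measured contact was 0 in 4 of them, so that their scores rested on the pseudocount. Over all genes 2.17% of pairs in Ctr-OPCs and 1.58% with IFN-γ had a contact of 0, and no pair of another member did. The highest score among these 4 was 0.0379. The highest of all 6, 0.0495, was with an element in an intron of Dlx6os1 at a measured contact of 0.00786 and just missed the threshold. In IFN-γ-OPCs none of these partners was listed for Samd9l, and it had 4 pairs within 101 kb, all of them connections.

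The highest score of any member in either table was that of Samd9l with an element over an exon of the noncoding gene Gm20559, 58.4 kb downstream, at 0.106. The activity of that element was 0.531 and its contact 0.0410, above 99.9% of the pairs of that table at distances of 46.7 to 73.0 kb. A pair of elements in an intron of Samd9l itself, 1.20 and 1.87 kb from the start site, had activities of 0.311 and 0.255 and scores of 0.0842 and 0.0691. The last, in an intron of Vps50 100.9 kb away, had a score of 0.0619, and its activity was 0.439 in Ctr-OPCs, where it was listed for other genes, and 1.10 in IFN-γ-OPCs. At 2.51-fold this was the largest ratio among the matched member elements. Because the total of Samd9l was the lowest of the members, elements of low activity reached high scores for it.

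**Figure D5:**
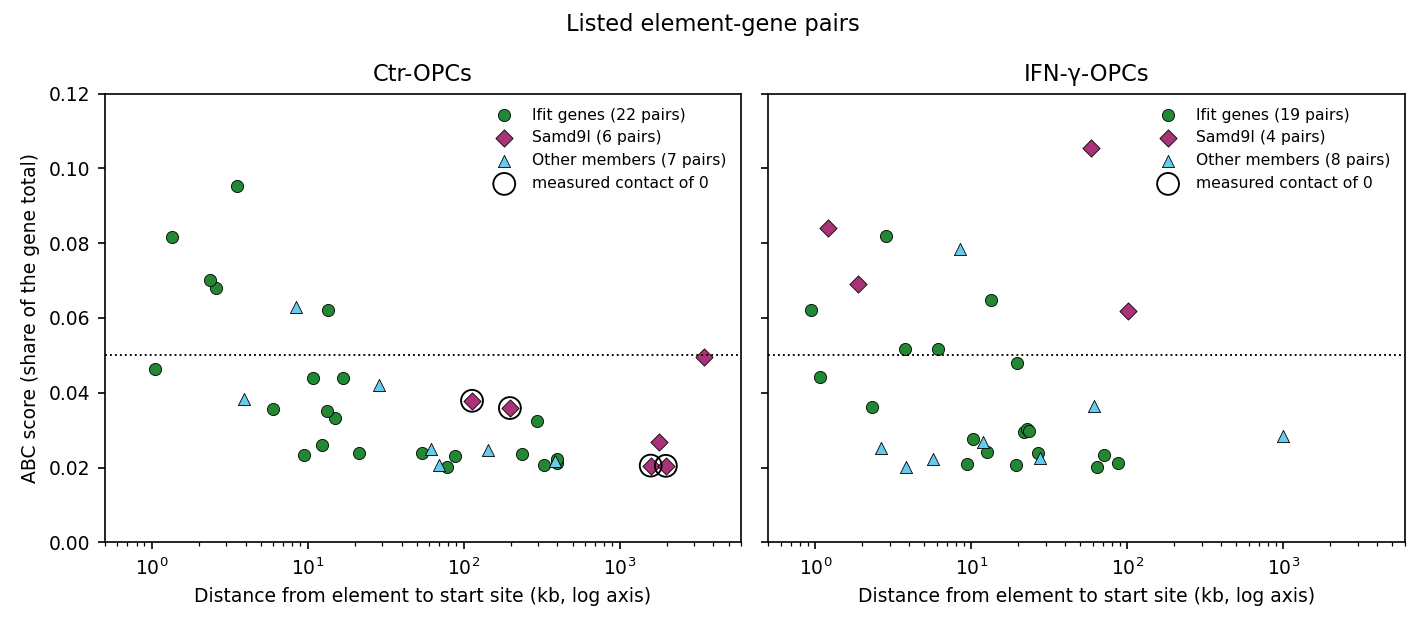
ABC score of each listed pair of a member against the distance from element to start site (kb, log axis) in Ctr-OPCs (left) and IFN-γ-OPCs (right), with Ifit genes, Samd9l and the other members by colour, rings around pairs with a measured contact of 0, and the 0.05 threshold dotted. All 6 pairs of Samd9l lie under the line at 113 kb or more on the left, and its 4 pairs lie above it within 101 kb on the right.

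The remaining members had few or no connections. Ifih1 kept an intergenic element 8.45 kb upstream, with an activity of 0.668 in Ctr-OPCs and 0.841 after IFN-γ, an adjusted contact of 0.0290 and 0.0414, and a score of 0.0631 and 0.0786. This was the 1 connection outside the Ifit cluster found in both conditions. In IFN-γ-OPCs Ifih1 was also paired with an element in its own intron at 0.0252 and with one 990 kb away at 0.0283. Ddx58 had 1 pair, with an element over a coding exon of Topors, at 0.0420 in Ctr-OPCs.

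Rsad2 was paired in both conditions with an element in an intron of Rnf144a, 61.4 kb downstream, whose activity of 4.78 in Ctr-OPCs and 4.30 with IFN-γ was the highest of any member element. Its adjusted contact with Rsad2 was 0.00323 and 0.00704, and the score 0.0249 and 0.0365. Rsad2 shared 3 of its 6 pairs with its neighbour Cmpk2, a nucleotide kinase gene, whose total was 0.659 and 0.837. Isg15 was paired in Ctr-OPCs with an element over AW011738, 3.89 kb upstream, at 0.0385, and in IFN-γ-OPCs with elements in an intron of Agrn at 0.0269 and over Plekhn1 at 0.0225. Oasl2 had 1 pair, with an element over its own coding exon, at 0.0224.

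Over all members, 23 elements could be matched between the tables. Their median log2 ratio of activity was 0.12 against -0.084 over 19332 matched elements, 16 of the 23 were higher with IFN-γ against 42.1% of all, and 4 were more than 1.5-fold higher against 9.37% of all. The 10 matched member pairs had a median log2 ratio of adjusted contact of 0.09 against 0.05 over 29858 pairs, with 3 of them more than 1.5-fold higher against 12% of all. These 3 were an element each of Rsad2 (log2 ratio 1.12), Ifit1 (0.86) and Ifit3b (0.65). The product of activity and contact was higher with IFN-γ in 9 of the 10 pairs, with a median log2 ratio of 0.79, against 47.9% of all matched pairs and a median of -0.028. The score was lower in 6 of the 10, with a median of -0.09, against 48.6% of all matched pairs and a median of 0.017. All of the matched member pairs except those of Ifih1 and Rsad2 lay in the Ifit cluster. Pairs there share elements and contact bins, so they are not separate observations. The median contact ratio of 0.09 is the value of the Ifit2 bin, which both Ifit2 pairs have in common.

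Among genes of the wider antiviral interferon pathway the ratios of gene total were mostly smaller than those of the Ifit genes. Of 47 such genes, listed from general knowledge, 41 were in a table. For the 29 in both tables the median log2 ratio of gene total was 0.05 against -0.066 over all genes, 17 were higher with IFN-γ (58.6%, against 35.7% of all genes), and 2 were more than 1.5-fold higher (against 0.615%). Both of these were in the Ifit cluster and shared elements with members: Ifit1bl1 (log2 ratio 0.99) and Ifit1bl2 (0.62). Next came Ube2l6, which encodes the conjugating enzyme of ISG15, at 0.37. The lowest were Ticam1, the adaptor of Toll-like receptor 3, at -0.33, Dhx58, a relative of the RNA sensors, at -0.18, and Oas2, which makes oligoadenylates, at -0.16.

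Connections of the pathway genes numbered 13 in Ctr-OPCs and 11 after IFN-γ, with 4 of the 41 genes having more (against 14.9% of all genes) and 5 fewer (against 13.0%), which is not above the shares of all genes, and Ifit1bl1 alone changed by 2 or more, from 3 to 1. Their promoter quantiles were higher with IFN-γ in 24 of 29 genes and by over 0.1 in 13, against 49.5% and 8.79% of all genes. Among the genes listed only in IFN-γ-OPCs were Irf1, Usp18, Zbp1, Oas1g, Oas3, Oasl1, Ifitm1, Ifitm2 and Ifi44, and Irf3 and Uba7 were listed only in Ctr-OPCs.

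The labelled cell type was checked by markers. All 6 OPC markers (Pdgfra, Cspg4, Olig1, Olig2, Sox10 and Ptprz1) were listed in both tables, with promoter quantiles of 0.851 to 0.982 in Ctr-OPCs and 0.815 to 0.994 in IFN-γ-OPCs. Of 10 microglia markers, whose cells also respond to interferon, 5 were listed in Ctr-OPCs and 6 with IFN-γ, at median quantiles of 0.663 and 0.684, and Itgam, Trem2 and Ptprc were in neither table. Their gene totals summed to 4.08 and 6.38 over different genes, since Aif1 and Tmem119 were listed only with IFN-γ and Tyrobp only in Ctr-OPCs, and the 4 listed in both tables summed to 2.96 and 3.10. The same 3 of 4 astrocyte markers were listed in both tables, with summed totals of 4.13 and 4.03, as were all 4 neuron markers, with 4.99 and 4.42, and the OPC markers summed to 11.99 and 11.02. The part of other cells in the members' values was not tested, and more cells of a type cannot be told apart from more signal per cell in these bulk tables.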

How the data were processed

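The authors aligned H3K27ac HiChIP reads from 6 libraries to mm10 with HiC-Pro and ran the ABC model at 5 kb with bulk ATAC-seq, from which multimapped reads had been removed, and H3K27ac CUT&RUN of both conditions. Versions of HiC-Pro and of the model are not given in the sources used here. In the deposited tables, 1 pooled per condition, element activity is a signal in arbitrary units, the ABC score is a fraction of the gene total, and contact, promoter quantile, power-law score and the products are scores of the model, all normalized by the authors. Gene symbols came from GENCODE M21 by Ensembl identifier.

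The 10 members and the pathway and marker lists were chosen with earlier results of these data known. For each gene the total was recovered by dividing a pair's activity times contact by its score. Elements were matched between tables by mutual best overlap of at least 1 bp, pairs also by gene. Folds past 1.5 and scores above 0.05 were counted, with no test, since there is no replicate. All members were named, as were the 3 pathway genes with the highest and the 3 with the lowest ratio, those whose connections changed by 2 or more, and the genes that share most elements with a member. Motifs were searched in RefSeq promoter windows and GRCm38 sequence, which is the mm10 assembly. Element matching, totals and motif search were tested on simulated data. Analyses used Python 3.11.15 with pandas 2.3.3. Alternatives tried were other score limits, the power-law values, scaling by medians, matching rules and motif letters.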

Additional observations from a re-analysis of the deposited data

How the results depend on the processing

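The count of connections depended on the score and its limit. With all deposited pairs the members had 35 in Ctr-OPCs and 31 with IFN-γ (a difference of -4), with scores above 0.1 they had 0 and 1 (a difference of 1), and with the power-law score 14 and 13 (a difference of -1), against 6 and 10 as reported. The direction of that difference therefore turned under 2 of the 4 alternatives, and with equal numbers of top pairs from both tables it was 4 again. For the pathway list the same settings gave 73 and 96 (23), 1 and 1 (0), and 28 and 27 (-1), against 13 and 11. The cause was not tested. The median log2 ratio of the members' gene totals was 0.69 with power-law totals, 0.64 with each table's median subtracted and 0.53 with the 4 Ifit genes averaged into 1 value, where 2 of 5 passed 1.5-fold, and no single member's ratio changed sign under the other 2 settings. For the pathway list it was 0.043 with power-law totals and 0.10 with medians subtracted. The median log2 ratio of element activity was 0.15 with at least 50% reciprocal overlap, 0.23 after division by each table's median and 0.33 over the 7 elements of a connection. That of contact was 0.092 before the pseudocount and 0.052 with the median at a like distance subtracted. GAS letters were in 10.7% and 8.33% of member elements of Ctr-OPCs and IFN-γ-OPCs, and ISRE cores with 1 to 3 bases between in 14.3% and 20.8%.

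No paired analysis was possible because the libraries of each condition are pooled in 1 table, and leaving out a replicate was not run for that reason.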
